A study of Homo sapiens with 2 samples.

Results

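The PAX genes, PAX1 to PAX9, were examined in H9 cells, an established line of human embryonic stem cells kept undifferentiated in culture. All 9 genes of that name were taken, out of 19970 protein-coding genes of chromosomes 1 to 22 and X, each with its RefSeq interval (GRCh38.p14) and 20 kb on either side. The study used ATAC-Me, in which a transposase inserts adapters into open chromatin and the fragments are then converted so that methylated and unmethylated cytosines read differently. There was 1 group, H9 pluripotent cells grown on Matrigel in mTeSR medium with no treatment, with 2 replicates and no second condition, so all values describe 1 cell line. The labels name no separate cultures, so the spread between the replicates may be technical. The same pooled list of accessible regions (peaks) is named for both.

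PAX proteins are transcription factors that bind DNA through a paired domain, and some carry a homeodomain as well. They direct the formation of organs and tissues in the embryo: PAX6 the eye, forebrain and pancreas, PAX3 and PAX7 the neural crest and skeletal muscle, PAX2, PAX5 and PAX8 the kidney, the midbrain-hindbrain boundary, B cells and the thyroid, PAX1 and PAX9 the vertebral column, thymus and teeth, and PAX4 the insulin-producing cells of the pancreas. Pluripotent cells hold most developmental regulators of this kind in a repressed state marked by Polycomb proteins, and their CpG-rich starts are usually free of DNA methylation.

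Summed over the 29175448 CpGs listed, replicate 1 had 29270697 reads and replicate 2 had 52758656. The 9 PAX intervals, 1007 kb in all, drew between 713 (PAX4) and 4346 (PAX5) of these reads in replicate 1, and between 1005 and 9757 in replicate 2. Methylation is given as the percentage of reads over a region's CpGs that were methylated, in each replicate and as the mean ± SD (n = 2). A read that covers several CpGs counts at each of them, which makes the Wilson 95% intervals narrower, and the p-values per peak smaller, than independent fragments would give. As a check of the cells, the starts of the pluripotency genes SOX2 and CRIPTO (also known as TDGF1) were at 1.19% and 0.407% with a peak, whereas that of KRT5, a keratin of skin, was at 88.3% without one. The listed start of DNMT3B, a DNA methyltransferase of pluripotent cells, had a peak and 46.8% ± 4.08 methylation over 11 CpGs. POU5F1, LIN28A, SALL4, HBB and CD3E, also on the check list, had no listed start, and ALB had 1 and 9 reads. Low starts do not single out pluripotent cells, since 91.3% of the 11801 autosomal protein-coding genes with enough reads were under 20% in both replicates.

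RefSeq listed 19 transcription starts for 8 of the 9 genes: 9 for PAX6, 2 each for PAX2, PAX4 and PAX9, and 1 each for PAX3, PAX5, PAX7 and PAX8. PAX1 was measured at its gene ends. The sequences below, from RefSeq (GRCh38.p14), run from 250 bases before a start to 50 bases from it on, on the strand of the gene, with every CpG in capitals. They were chosen to show the range of the family: a peak against no peak at equally unmethylated PAX6 and PAX9 starts, the CpG-poor PAX4, the partly methylated PAX8, and the methylated antisense start inside PAX8. PAX6 starts are numbered from 1 at the outermost start to 9 at the innermost.

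PAX6 start 1, chr11:31817912-31818211, minus strand, 24 CpGs, peak: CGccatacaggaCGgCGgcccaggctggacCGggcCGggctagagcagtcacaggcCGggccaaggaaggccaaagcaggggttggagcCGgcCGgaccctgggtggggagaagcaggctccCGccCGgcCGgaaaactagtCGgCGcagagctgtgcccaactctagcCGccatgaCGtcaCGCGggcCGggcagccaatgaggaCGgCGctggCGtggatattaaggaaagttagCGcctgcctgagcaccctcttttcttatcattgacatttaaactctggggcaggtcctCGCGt
PAX6 start 2, chr11:31812671-31812970, minus strand, 18 CpGs, no peak: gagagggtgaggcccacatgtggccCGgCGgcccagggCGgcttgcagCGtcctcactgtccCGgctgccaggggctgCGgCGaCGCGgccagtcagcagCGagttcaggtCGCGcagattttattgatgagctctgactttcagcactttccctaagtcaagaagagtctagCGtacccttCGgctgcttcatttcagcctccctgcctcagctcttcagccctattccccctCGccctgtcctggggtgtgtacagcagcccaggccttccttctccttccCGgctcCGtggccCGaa
PAX6 start 7, chr11:31804992-31805291, minus strand, 32 CpGs, no peak: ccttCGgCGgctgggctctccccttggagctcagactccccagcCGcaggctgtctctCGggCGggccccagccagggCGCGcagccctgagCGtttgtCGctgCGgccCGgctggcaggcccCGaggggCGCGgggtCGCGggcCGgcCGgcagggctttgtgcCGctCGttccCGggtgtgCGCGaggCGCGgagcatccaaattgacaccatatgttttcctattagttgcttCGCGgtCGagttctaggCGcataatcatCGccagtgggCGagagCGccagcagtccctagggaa
PAX9 start 1, chr14:36657318-36657617, plus strand, 19 CpGs, no peak: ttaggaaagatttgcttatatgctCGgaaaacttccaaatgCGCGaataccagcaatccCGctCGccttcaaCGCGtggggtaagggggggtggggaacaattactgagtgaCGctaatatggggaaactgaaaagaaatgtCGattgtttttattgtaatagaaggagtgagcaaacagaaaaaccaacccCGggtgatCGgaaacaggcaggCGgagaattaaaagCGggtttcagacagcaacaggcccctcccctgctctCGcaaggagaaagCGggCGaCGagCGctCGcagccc
PAX9 start 2, chr14:36661610-36661909, plus strand, 12 CpGs, peak: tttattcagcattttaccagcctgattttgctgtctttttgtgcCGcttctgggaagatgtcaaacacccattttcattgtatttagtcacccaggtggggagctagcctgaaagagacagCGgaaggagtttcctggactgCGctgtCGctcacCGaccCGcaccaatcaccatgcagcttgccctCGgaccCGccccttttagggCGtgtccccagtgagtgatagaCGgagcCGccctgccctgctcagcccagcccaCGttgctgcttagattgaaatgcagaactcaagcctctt
PAX3 start, chr2:222298949-222299248, minus strand, 21 CpGs, no peak: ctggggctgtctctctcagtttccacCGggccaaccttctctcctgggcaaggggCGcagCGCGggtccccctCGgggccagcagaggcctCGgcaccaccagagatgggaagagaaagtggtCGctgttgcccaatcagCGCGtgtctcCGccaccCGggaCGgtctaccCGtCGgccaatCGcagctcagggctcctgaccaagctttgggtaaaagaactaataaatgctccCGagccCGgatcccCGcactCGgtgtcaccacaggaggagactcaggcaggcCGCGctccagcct
PAX8 start, chr2:113278872-113279171, minus strand, 13 CpGs, no peak: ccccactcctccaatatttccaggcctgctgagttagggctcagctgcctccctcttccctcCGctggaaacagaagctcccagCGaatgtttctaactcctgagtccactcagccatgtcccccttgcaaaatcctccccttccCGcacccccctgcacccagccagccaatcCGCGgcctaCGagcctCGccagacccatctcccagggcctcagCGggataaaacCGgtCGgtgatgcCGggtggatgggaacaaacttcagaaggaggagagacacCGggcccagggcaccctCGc
PAX8-AS1 start 2, chr2:113236019-113236318, plus strand, 32 CpGs, no peak: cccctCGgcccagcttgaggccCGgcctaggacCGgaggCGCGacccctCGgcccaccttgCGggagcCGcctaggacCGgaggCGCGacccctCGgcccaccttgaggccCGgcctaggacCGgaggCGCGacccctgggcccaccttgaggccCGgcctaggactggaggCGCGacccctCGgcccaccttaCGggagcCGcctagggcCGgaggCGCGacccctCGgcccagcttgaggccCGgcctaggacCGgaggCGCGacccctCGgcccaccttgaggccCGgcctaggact
PAX4 start 1, chr7:127618093-127618392, minus strand, 2 CpGs, no peak: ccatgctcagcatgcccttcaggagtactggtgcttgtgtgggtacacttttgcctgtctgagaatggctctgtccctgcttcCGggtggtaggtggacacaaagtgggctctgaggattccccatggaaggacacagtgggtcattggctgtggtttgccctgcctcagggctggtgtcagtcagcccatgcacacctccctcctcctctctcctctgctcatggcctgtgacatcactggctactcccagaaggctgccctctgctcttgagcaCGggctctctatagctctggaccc

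Within these 300 bases, promoters with the same number of CpGs could be methylated or unmethylated. The PAX8-AS1 promoter has 32 CpGs, and the unit ggaggCGCGacccct occurs 6 times in it. It had 20 of 22 reads methylated in replicate 1 and 40 of 40 in replicate 2. PAX6 start 7 also has 32 CpGs and had 1 of 144 and 3 of 198 reads methylated. In the PAX8 promoter, 6 of 30 and 6 of 43 reads were methylated, on 5 CpGs in replicate 1 and 2 in replicate 2. PAX9 start 2, with fewer CpGs than PAX8, had 0 of 439 and 3 of 540. A count of 0 in 439 reads allows up to 0.683%. The 19 PAX promoters held a median of 16 CpGs, against 14 over the 34961 promoters of the table. Plain motifs were searched on both strands, and no occurrence of one can hold another: GGGCGG was in 8 of 19 (45.0% of all promoters), CCAAT in 8 of 19 (34.6%) and TATAAA in 1, that of PAX5 (11.5%).

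Most PAX starts with enough reads were nearly free of methylation, and the PAX8 start was partly methylated. For each start, CpGs within 500 bp were pooled, and a start was measured with at least 20 reads in each replicate. Of the 19 starts 17 were measured, and all of those 17 were under 20% in both replicates. They belong to 7 genes, all of which were thus low, where 91.3% of the 11801 autosomal protein-coding genes measured the same way were. The median over the 7 genes was 1.13% ± 0.543, beside 1.28% ± 0.703 over all genes. The medians differed by less than the SD between replicates. The PAX starts were read less deeply, with a median of 343 and 477 reads per gene against 703 and 1020.

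**Figure D1:**
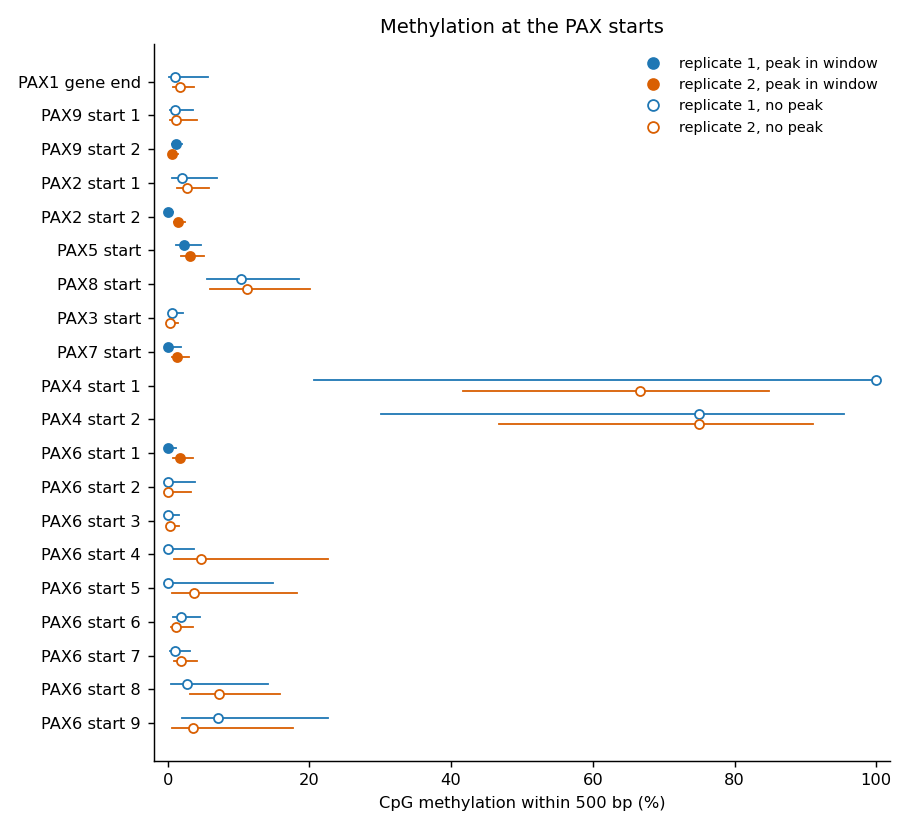
CpG methylation within 500 bp of each PAX start (horizontal axis, %), by replicate, with Wilson 95% intervals as bars; filled points have a peak in the window and open points have none. Points are below 12% for every start of the 7 measured genes and for the lower gene end of PAX1, and the PAX4 starts, with few reads, lie at 66.7% and above.

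PAX6, the regulator of eye and forebrain, had 0.7502% of 1333 reads methylated in replicate 1 and 1.52% of 1515 in replicate 2 over its 9 starts. PAX3 was lower, with 0.583% of 343 reads and 0.265% of 378. PAX7, its closest relative and a marker of muscle stem cells, had 0 of 207 reads methylated, which allows up to 1.45%, and 1.30% of 385. The PAX7 replicates spanned both PAX3 values, while both PAX6 values lay above both PAX3 values.

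Among the kidney and B-cell group, PAX2 had 0.340% and 1.69% of 588 and 1125 reads methylated over its 2 starts. PAX5, the regulator of B-cell identity, had 2.30% and 3.14% of 305 and 477 reads. With a 250 bp window the mean of PAX5 was 0.487% instead of 2.72%, and with the mean of CpG fractions 1.29%. PAX8, the thyroid and kidney regulator, had 10.3% of 87 and 11.3% of 80 reads methylated. Both PAX8 replicates lay above both replicates of every other measured PAX gene. The PAX8 window holds 34 CpGs, and its mean of 10.8% ± 0.640 rests on the fewest reads of the 7. It was 12.1% with a 250 bp window and 7.73% with 1000 bp. The methylation lay mainly on the upstream side. The 1 kb before the start had 27.6% of 29 and 19.6% of 46 reads methylated. The first 1 kb into the gene had 1.60% of 125 and 4.04% of 99.

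PAX9, needed for teeth and the vertebral column, had 1.10% of 1094 reads methylated in replicate 1 and 0.729% of 1097 in replicate 2. At the lower gene end of PAX1 (chr20:21705664), its counterpart in the vertebral column, 1 of 96 and 6 of 353 reads were methylated. The upper gene end of PAX1 had 1 and 4 reads and was not measured. Both genes were thus low in both replicates, with PAX1 at 1.37% ± 0.465 and PAX9 at 0.913% ± 0.260.

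PAX4 was the gene that went the other way, on few reads. Around its first start (chr7:127618142) 1 of 1 and 10 of 15 reads were methylated, and around its second start, 2115 bp into the gene, 3 of 4 and 9 of 12. The 2 windows hold 4 and 9 CpGs, against 62 at PAX3 and 76 at PAX7. Neither start reached the read minimum, so PAX4 does not enter the median start methylation over both replicates.

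Fewer starts were called as open than were unmethylated, in the PAX genes as over all genes. A peak overlapped the start window in 5 of the 8 genes with a listed start, PAX2, PAX5, PAX6, PAX7 and PAX9, where 64.9% of 15100 genes had one. Among the 8325 measured genes with at least 50 CpGs per start window, 86.3% had one. PAX4, with 4 and 9 CpGs in its windows, and PAX8, with 34, would not enter that set. The 9 PAX6 windows hold between 16 and 69. PAX3, PAX4 and PAX8 had no peak, and the nearest peak to the PAX3 start was 7512 bp away. The 5 peaks at starts had a median signal of 321 (the peak caller's own deposited value, used only to rank peaks), beside 1180 for the 10133 peaks at protein-coding starts. The exception was PAX9 start 2, whose peak had a signal of 1664, above 88.4% of autosomal peaks. The PAX6 start 1 peak had a signal of 220, above 4.65%. Counting only peaks above the list's median significance left 1 of the 5, PAX9, and the share over all genes was not computed at that setting.

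PAX9 and PAX2 each have 2 listed starts, and in both the inner one had the peak. At PAX9 start 2 (chr14:36661860), 10 of 895 and 6 of 922 reads were methylated and the peak covered the start. At PAX9 start 1, 4292 bp upstream, 2 of 199 and 2 of 175 reads were methylated and no peak lay within 500 bp. Methylation at the 2 starts, 0.884% ± 0.330 and 1.07% ± 0.0975, differed by less than the SD of start 2, although start 2 had several times the reads. PAX2 start 2 (chr10:100745582) likewise had the peak, with 0 of 487 and 13 of 903 reads methylated, and PAX2 start 1, 10186 bp upstream, had 2 of 101 and 6 of 222 without one.

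PAX6 was unmethylated at all 9 of its listed starts, spread over 17.3 kb, and only start 1 had a peak within 500 bp. Start 1 (chr11:31817961) had 0 of 333 reads methylated in replicate 1 and 6 of 356 in replicate 2. Start 2, 5241 bp into the gene, had 0 of 97 and 0 of 115, which allows up to 3.09% and 2.61%. Start 3, at 8002 bp, had 0 of 243 and 1 of 361. These outer starts had the lowest means of the 9, although starts 4 and 5 were also at 0 in replicate 1 and start 6 was below start 1 in replicate 2.

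Starts 4 and 5, at 10339 and 11036 bp, rested on few reads: 0 of 99 and 1 of 21 at start 4, and 0 of 22 and 1 of 27 at start 5. Starts 6 and 7, at 11960 and 12920 bp, had 4 of 220 and 3 of 246 reads, and 3 of 277 and 6 of 313 reads, methylated. In each replicate the Wilson intervals of these 4 starts overlapped that of start 1.

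The innermost starts had the highest means of the 9, although in replicate 2 start 9 lay below starts 4 and 5. Start 8, at 14288 bp, had 1 of 36 and 5 of 69 reads methylated, and start 9 (chr11:31800661), at 17300 bp, had 2 of 28 and 1 of 28. Their difference from start 1 was 4.17 ± 1.97 percentage points for start 8 and 4.51 ± 3.72 for start 9 (SD, n = 2), higher in both replicates. Their Wilson intervals overlapped those of start 1 in both replicates at start 8 and in replicate 2 at start 9. No test between starts was made: with 2 replicates an exact sign-flip test cannot go below p = 0.50. Over the 18.3 kb from start 1 to start 9, with 500 bp beyond each, 0.631% of 2379 reads and 2.04% of 2839 were methylated. From start 9 to the other gene end, 11.1 kb away, the level was 6.46% and 14.98%.

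PAX6 had 4 peaks in its interval, all with low methylation. The peak of highest signal (477) lay in the gene body at chr11:31811076-31811522, 1.22 kb upstream of start 3, with 1 of 245 and 5 of 251 reads methylated. The peak at start 1 (chr11:31817972-31818297) had 0 of 180 and 6 of 259. The peak at chr11:31798704-31798905, 1888 bp beyond start 9, had 0 of 105 and 2 of 122, and the peak 2665 bp upstream of start 1 (chr11:31820536-31820767) had 0 of 67 and 0 of 73, which allows up to 4.48% and 4.11%. Its signal was 258. None of the 4 passed Fisher's exact test between replicates (adjusted p from 0.341 to 1).

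**Figure D2:**
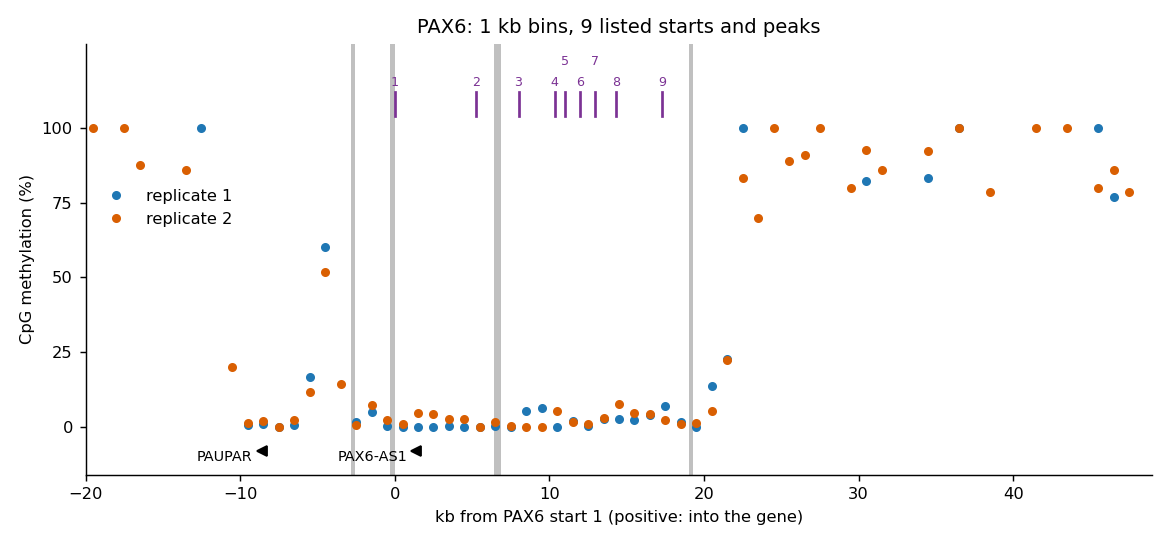
CpG methylation (%) in 1 kb bins with at least 5 reads across PAX6 and 20 kb on either side, by kb from start 1, for both replicates; purple ticks are the 9 listed starts, grey bands the 4 peaks and triangles the antisense starts. The bins from start 1 to beyond start 9 lie below 10%, and the bins nearest the other gene end lie above 60%.

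PAUPAR and PAX6-AS1, both non-coding, start on the other strand within the PAX6 interval. The start of PAUPAR lies upstream of the gene (chr11:31826567) and had 0.893% and 1.57% of its reads methylated. The start of PAX6-AS1 lies inside PAX6 and had 0 of 64 reads methylated in replicate 1 and 5.56% of 144 in replicate 2. Neither had a peak in its window. Between them, the bin 4.0 to 5.0 kb upstream of start 1 was methylated at 60.0% of 10 and 51.9% of 27 reads.

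The unmethylated stretch around the starts was long in this family. It was measured as the run of neighbouring 1 kb bins around a start, each with at least 10 reads and under 20% methylation in both replicates; the longest run over a gene's listed starts was taken. PAX6 had the longest run, 25 kb, which no other of the 15100 genes with a listed start reached. With replicate 2 alone PAX6 had 26 kb, a length that 3 genes reached, and the longest run was 28 kb. PAX2 had 16 kb, a length that 3 genes reached, itself and PAX6 included. PAX3 had 15 kb, reached by 5 genes, and PAX9 had 10 kb, reached by 47. PAX5 had 5 kb, PAX7 and PAX8 had 4 kb each, and PAX4 had 0. At PAX1, which has no listed start and was not counted, the run at the lower gene end was 7 kb.

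The median over the 8 genes was 7.5 kb, beside 1 kb over all genes. A run of at least 10 kb was found in 4 of 8 PAX genes and in 0.311% of all genes, and a run of at least 4 kb in 7 of 8 and in 5.54%. Among the 8325 measured genes with at least 50 CpGs per start window, the shares were 0.468% and 7.72%. PAX4 and PAX8, which count among the 8 PAX genes, would not enter that set. The limits of 10 kb and 4 kb were not part of the plan. The first equals the run of PAX9 and the second the runs of PAX7 and PAX8, so the PAX counts depend on them. A gene with many listed starts has more chances of a long run: among the 215 genes with at least 5 listed starts, 1.40% reached 10 kb. The length also changed with the start it was taken from, because the bins then fell at other places. From PAX6 starts 1 and 3 the run was 14 kb, from starts 6 and 7 it was 10 kb, and the other PAX6 starts gave 25 kb. PAX2 start 1 gave 1 kb and PAX9 start 1 gave 6 kb.

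Read depth sets where most of these runs ended. The runs of PAX2, PAX5, PAX8 and PAX9 ended on both sides at a bin with too few reads, and that of PAX7 at methylated bins on both sides. PAX3 ended at few reads upstream and at methylated bins within the gene. With 500 bp bins, which hold fewer reads, PAX6 remained the longest at 11.5 kb but PAX2 came to 3.5 kb, a length that 480 genes reached. PAX9 then had 6.0 kb, PAX3 1.0 kb and PAX7 0 kb, and the family's median was 3.0 kb. At least 4 kb was then reached by 3 of 8 PAX genes and 1.99% of all genes, and at least 10 kb by PAX6 alone of the 8. With a limit of 10% methylation per bin, 5 of 8 reached 4 kb, against 3.75% of all genes, and 3 of 8 reached 10 kb, with PAX9 at 6.0 kb and PAX8 at 0 kb. When up to 2 bins with few reads were crossed, PAX2 came to 22 kb and PAX3 to 20 kb, and 7 genes, PAX6 included, reached its 25 kb.

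**Figure D3:**
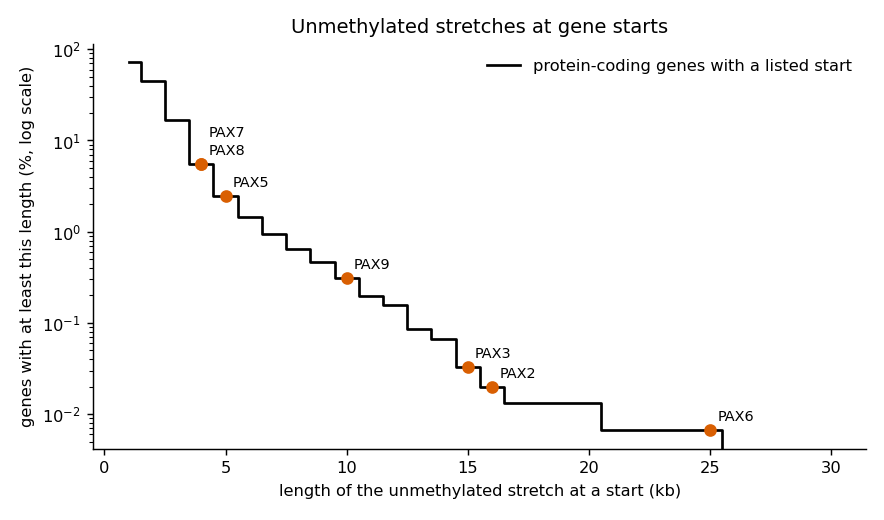
Share of the 15100 protein-coding genes (vertical axis, %, log scale) whose unmethylated stretch at a start is at least as long as the length on the horizontal axis (kb), with 7 PAX genes as points. PAX6 at 25 kb, PAX2 at 16 kb, PAX3 at 15 kb and PAX9 at 10 kb lie where under 1% of genes are left; PAX4, at 0 kb, is not drawn.

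Weighted by reads, the bodies of most PAX genes were less methylated than those of most genes. The body is the gene between its RefSeq ends without 1000 bp on either side of listed starts and without peaks. PAX1 has no listed start, so its body includes the CpGs next to its gene ends. Parts with many reads weigh most in these values. In PAX7 the first of 5 equal parts held 1229 of the 2084 body reads of replicate 1. The values of PAX2, PAX3, PAX7 and PAX8 therefore do not describe the whole body, as the parts given below show. PAX1, PAX9 and PAX6 were low over most of their length, at 4.15% ± 1.79, 4.84% ± 0.260 and 8.36% ± 5.75. PAX2 stood at 22.8% ± 4.61, PAX7 at 32.9% ± 7.28 and PAX3 at 33.9% ± 6.83. PAX8 (45.7% ± 17.0) and PAX5 (47.6% ± 8.03) were higher, and PAX4 (83.6% ± 2.49, from 22 and 75 reads) the highest.

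Body methylation was under 50% in both replicates in 6 of the 9 genes, all but PAX4, PAX5 and PAX8. Over 10957 genes with a measured start and body, 6.51% were. PAX1 and PAX4 lack a measured start and would not enter that set. Of the 7 PAX genes that would, all but PAX5 and PAX8 were under 50% in both replicates. The median over the 7 PAX genes with a measured start was 32.9% ± 7.28, beside 83.9% ± 2.99 over all genes. The body exceeded the start by a median of 30.05 ± 9.52 percentage points in the PAX genes and 81.2 ± 2.62 in all genes. The body was above the start in both replicates in each of the 7. Averaging CpG fractions over CpGs with at least 5 reads lowered the PAX difference to 6.23 points, over 6 genes, and that of all genes to 58.0.

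The low part lay at the 5′ side of the gene. Where each body was cut into 5 equal parts from the first start, the first part was at 2.03% ± 2.49 in PAX6, 3.66% ± 0.917 in PAX7, 4.33% ± 1.87 in PAX2, 5.44% ± 1.15 in PAX9, 6.93% ± 4.48 in PAX3, 8.78% ± 4.19 in PAX8 and 22.3% ± 6.06 in PAX5. In PAX2, PAX3, PAX7 and PAX8 the second part was already between 64.7% and 84.1%. In PAX9 the first 3 parts stayed at or below 5.44%, and in PAX6 the first 4 stayed at or below 10.98% while the last was at 88.8% ± 4.37. PAX2 differed at its other end too, where the last part was at 13.2% ± 1.19 after 71.1% ± 5.46 in the part before.

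**Figure D4:**
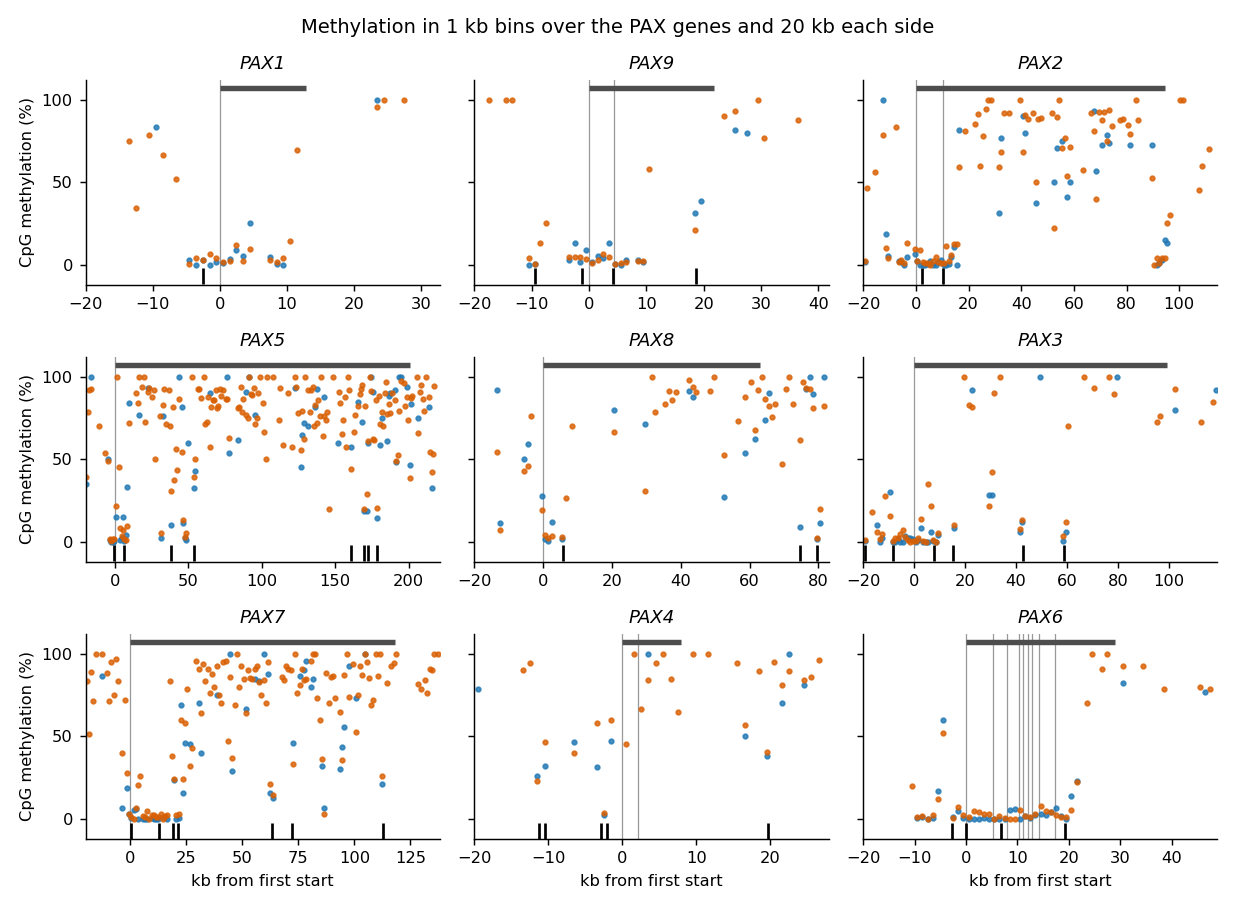
CpG methylation (%) of 1 kb bins with at least 10 reads over each PAX gene and 20 kb on either side, by kb from the first listed start (PAX1: from its lower gene end); blue is replicate 1, orange replicate 2, the grey bar the gene, thin lines the starts and black ticks the peaks. Low bins cluster around the starts, run through most of PAX6, PAX9 and PAX1, and are followed by higher bins in PAX2, PAX3, PAX7 and PAX8. Separate low bins lie further along, such as at 92.5 kb in PAX2 (0.833% and 1.23%), 58.5 kb in PAX3 (0.813% and 3.76%) and 86.5 kb in PAX7 (6.86% and 3.06%).

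Flank methylation was taken over the 20 kb beyond a gene end, without the nearest 1000 bp and without peaks, weighted by reads. The upstream flank was at 3.04% ± 1.51 for PAX3, 5.92% ± 1.19 for PAX6 and 7.95% ± 1.74 for PAX2. It was at 9.60% ± 3.44 for PAX9 and 12.5% ± 0.282 for PAX5. For PAX7 and PAX8 it was at 59.5% ± 10.6 and 48.2% ± 2.54, and the low run of PAX7 reached 1 kb upstream of its start. These flank values were carried by bins with many reads and do not describe the whole 20 kb. In PAX5 the bins of 1 kb between 1 and 4 kb upstream lay between 0% and 1.79% in each replicate, with 68 to 390 reads each. The bins farther out were mostly methylated, as were those beyond about 11 kb in PAX6 and PAX9, which held at most 14 reads per replicate. Downstream flanks of PAX2, PAX3, PAX6, PAX7 and PAX9 were between 73.7% and 87.4%, those of PAX5 and PAX8 at 64.3% ± 6.69 and 61.7% ± 12.6.

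The PAX intervals held 40 of the 46884 autosomal peaks: 5 at a listed start, 22 in gene bodies and 13 in flanks. Their median signal was 357, against 541 over all autosomal peaks, and they held 4.36 CpGs per 100 bp against 2.45. A PAX7 peak had 13 and 9 reads and was not tested. Of the 39 peaks with at least 10 reads in each replicate, 31 were under 20% in both, beside 70.2% of 40703 peaks. No PAX peak was above 80%, and the highest value in either replicate was 34.1%. The median was 1.62% ± 0.981, beside 3.87% ± 0.763 over all. By position it was 0.703% ± 0.796 at starts, 1.73% ± 0.404 in flanks and 5.42% ± 1.77 in bodies.

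The 4 peaks of highest signal were rich in CpGs and low in methylation, among them that at PAX9 start 2. In PAX5 a peak at chr9:37027552-37027984, inside the gene 6453 bp from its start, had a signal of 1692 and 5 of 763 and 29 of 1374 reads methylated. The peak overlaps the start of the non-coding gene LOC105376031. In PAX3 a peak 7638 bp into the gene (chr2:222290946-222291486) had a signal of 1593 and 3 of 823 and 13 of 925 reads methylated. The peak of highest signal in the PAX8 interval, 1759, lay in the neighbouring gene PSD4. The next by signal had fewer CpGs: a PAX7 peak at chr1:18651806-18652208 (signal 1162, 2.23 CpGs per 100 bp) had 0 of 150 and 3 of 194 reads methylated, and a PAX7 peak at chr1:18693697-18694139 (1109) had 10 of 146 and 16 of 257. A flank peak of PAX4 at chr7:127629349-127629622 (1034), with 2 CpGs, had 4 of 25 and 2 of 24.

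The most methylated peaks of most members lay deep in gene bodies or in flanks. In PAX7 the peak at chr1:18703014-18703197, 72.3 kb into the gene, had 15 of 44 and 29 of 101 reads methylated, the highest mean of all 40 at 31.4% ± 3.80. In PAX5 the peak at chr9:36873383-36873552, 160.7 kb into the gene, had 3 of 12 and 9 of 33. In PAX9 the peak at chr14:36676214-36676531 had 20 of 69 and 16 of 96, and in PAX4 the flank peak at chr7:127628536-127628750 had 5 of 22 and 5 of 19. The flank peak of PAX8 at chr2:113204004-113204226 had 1 of 10 and 4 of 12 reads methylated, so its values rest on very few reads. In PAX3 the highest was the peak at chr2:222283647-222283965, with 8 of 90 and 6 of 65.

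The peaks at starts were low in each of the 5 genes that had one. The PAX9 start peak (chr14:36661664-36662159) had 1 of 712 and 6 of 826 reads methylated, and the PAX2 start peak (chr10:100745395-100745822) had 0 of 314 and 7 of 507. The PAX5 start peak (chr9:37034359-37034907), the lowest of that gene, had 3 of 323 and 6 of 474, and the PAX7 start peak (chr1:18631184-18631447) had 1 of 191 and 3 of 256. The other PAX2 peak, in the body at chr10:100737585-100737870, had 0 of 172 and 4 of 272. All 10 replicate values at the start peaks were below 3%. Low values were usual for such peaks: the median was 0.703% ± 0.796 in the 5 PAX start peaks. It was 0.868% ± 0.650 over the 10095 tested peaks at protein-coding starts.

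Away from the starts, PAX7 had its lowest peak at chr1:18643483-18643662, with 0 of 63 and 1 of 130 reads methylated. The lowest of PAX9 lay 9469 bp upstream (chr14:36648019-36648411), with 0 of 254 and 1 of 226, and the lowest of PAX3 8378 bp upstream (chr2:222307228-222307471), with 0 of 101 and 1 of 70. PAX4, whose starts were methylated where read, had a low peak 2072 bp upstream at chr7:127620100-127620517, with 3 of 187 and 8 of 169. The PAX1 interval held a single peak, with 1 of 96 and 4 of 198 (chr20:21703050-21703231), 2468 bp from the lower gene end.

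**Figure D5:**
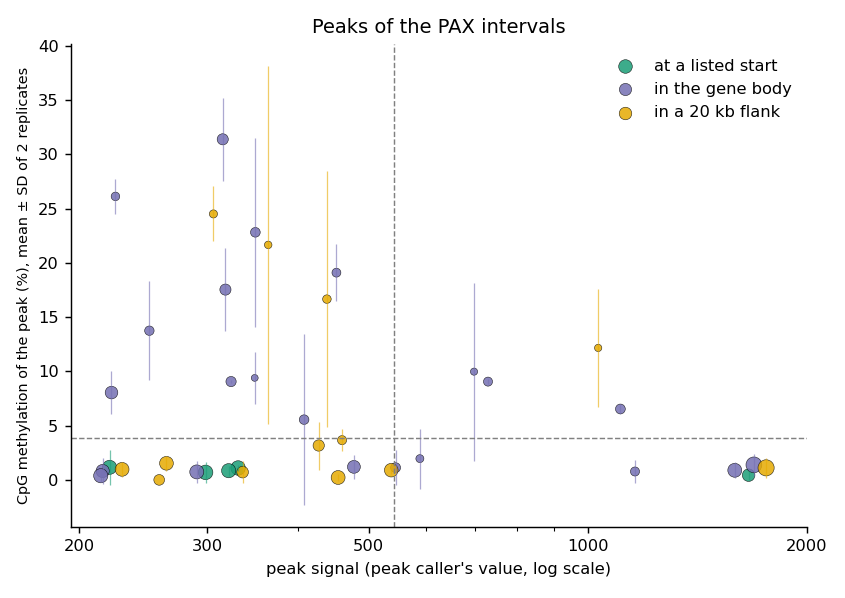
Methylation (%, mean ± SD of 2 replicates) of the 40 peaks in the PAX intervals against the peak caller's signal (log scale), coloured by position, with larger points for more CpGs per 100 bp; dashed lines are the medians of all autosomal peaks, 541 and 3.87%. The 5 peaks at starts lie below 2%, and every peak above 20% lies left of the median signal.

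No PAX peak passed the test between replicates. Of the 39 peaks, 0 passed an adjusted p of 0.05 (Fisher's exact test, two-sided, Benjamini-Hochberg over 40703 peaks), where 7.89% of all peaks did, and 5 had an unadjusted p under 0.05, where 20.2% did. The smallest adjusted p was 0.0558 (Fisher's exact test), at the PSD4 peak in the PAX8 flank (chr2:113198812-113199452), with 0.475% of 1053 and 1.75% of 1146 reads methylated. That peak passed when at least 30 reads were asked for (adjusted p = 0.0446, Fisher's exact test) and when only peaks above the median significance were tested (adjusted p = 0.0356). Replicate 2 was higher in 30 PAX peaks and lower in 8, and it was higher in 67.2% of all peaks.

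PAX8 holds methylated antisense starts. PAX8-AS1, a non-coding gene on the other strand within PAX8, has 2 listed starts, at chr2:113235527 and chr2:113236269. They had 87.0% of 23 and 92.7% of 123 reads methylated, and 90.9% of 22 and 97.4% of 117. Their windows hold 64 and 92 CpGs, more than the 34 at the PAX8 start itself, and neither has a peak. The level at the PAX8 start, on the other strand, was 10.8% ± 0.640.

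Genes that work with PAX proteins were measured the same way. The list held 20 partners of PAX proteins, from their network with EYA and DACH proteins and from eye-field formation, and 13 had a listed start: SIX2, SIX4, SIX6, EYA3, EYA4, DACH1, DACH2, LHX2, RAX, VSX1, OTX2, SOX2 and MITF. All 13 were under 20% in both replicates, where 91.3% of the 11801 autosomal protein-coding genes measured the same way were. Their median was 0.923% ± 0.773, beside 1.13% in the PAX genes and 1.28% over all genes. DACH1, a nuclear cofactor that acts with EYA proteins, was lowest with 0 of 265 reads and 0.578% of 173. VSX1, a homeodomain factor of the retina, was highest with 1.87% of 214 and 10.3% of 464. Of the 12 on autosomes 10 had a peak at a start, all but DACH1 and VSX1, where 64.9% of 15100 genes had one. Among the 8325 measured genes with at least 50 CpGs per start window, 86.3% had one. SIX4 and OTX2, with 45 and 47 CpGs, would not enter that set. The median unmethylated run of the partners was 4 kb, beside 1 kb over all genes and 2 kb among the 8325 CpG-rich genes. LHX2, an eye-field factor, had 14 kb.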

How the data were processed

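ATAC-Me libraries of 2 replicates of H9 cells were used. The authors' deposited CpG tables, 1 per replicate, hold a methylation fraction and a count of covering reads per CpG, and CpGs with no reads were not used. The deposited peak list, shared by both replicates, holds a score, a peak signal, the −log10 of the q-value and a summit per peak. Trim Galore, Genrich and the build hg38 (GRCh38) are named per the submitters' processing notes. Not given in the sources used here are the read mapper, the caller of methylation, versions, duplicate removal and how replicates entered peak calling. Cytosines left unconverted count as methylated. ATAC reads concentrate in open chromatin, so body values rest on fewer reads per CpG. No source used here names molecular identifiers, so intervals and limits cover counting error only.

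Methylated reads were the fraction times the reads; 100% of products were whole within 0.001. Starts and sequences came from RefSeq (GRCh38.p14), which matched 8 of 9 members; exons were not analysed here. Autosomal peaks were tested with Fisher's exact test, summed from hypergeometric probabilities with the log-gamma function of scipy 1.17.1. The code was tested on simulated data. Named were all members, at each the strongest start peak and the peaks of lowest and highest methylation, every PAX6 peak, and the extreme partners; the strongest peaks of PAX3, PAX4, PAX5, PAX7 and PAX8 outside starts, and the single bins, were chosen after their values were seen. The members and lists were chosen with earlier results of these data known. Alternatives covered windows, read minimums, weighting, peak significance, bin size and each replicate left out.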

Additional observations from a re-analysis of the deposited data

How the results depend on the processing

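The median start methylation, the PAX6 starts and the count of low partner starts kept their values within the spread between replicates, or within 1.5 times for counts, under the alternatives run for them. Single starts moved more: PAX3 came to 0.764% and PAX9 to 0.624% with a 250 bp window, and PAX9 to 1.52% with 1000 bp. The replicate test called 3210 peaks, 0 of them PAX peaks; with at least 30 reads it called 3508 (11.1%) and with peaks above the median significance 3364 (15.2%), 1 of them a PAX interval peak each time. The body minus start difference fell from 30.05 to 15.3 points with the whole body between the gene ends (28.0 in all genes) and to 6.23 with the mean of CpG fractions (58.0 in all genes). With peaks above the median significance alone, 1 gene had a peak at a start, and the share over all genes at that setting was not computed. At that setting 11 peaks lay in the intervals. Of these, 11 were under 20% in both replicates, beside 82.0% of all such peaks. The unmethylated stretch, with a median of 7.5 kb, was 3.0 kb with 500 bp bins, 5.5 kb with a limit of 10%, 8.0 kb with at least 5 reads per bin and 10.5 kb when up to 2 bins with few reads were crossed, an alternative chosen after seeing the data like the removal of CpGs that carry another mark (CpGx) in the tables. Fewer reads per bin end runs earlier; beyond that the cause was not tested.

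Leaving out a replicate gave 0.7502% to 1.60% for the start median (the latter over 8 genes, PAX4 included), 23.3 to 30.6 points for body minus start, 0% to 1.92% for the PAX6 starts and 9.5 kb for the stretch either way. Low PAX peaks were 33 of 39 without replicate 1 and 35 of 40 without replicate 2, beside 72.9% and 73.8% of all peaks. With replicate 1 alone the PAX7 run was 9.0 kb, and with replicate 2 alone that of PAX9 was 14 kb. The peak list is pooled, so peak counts could not be redone without a replicate. No paired analysis was possible because there is 1 group. Depth limits PAX4, whose starts had 5 and 27 reads in all, and the runs, most of which end at bins with few reads.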

Other observations

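Other starts within the PAX intervals were mostly low. In the PAX3 interval the starts of CCDC140 and CT75 were at 0.311% ± 0.439 and 0.850% ± 0.435, and that of CT75 had a peak. Next to PAX1, LINC01726 was at 3.30% ± 0.421 with a peak. LOC105370455, on the other strand within PAX9, was at 4.62% ± 2.53 without one. Within PAX5, LOC105376032 was at 14.2% ± 1.44 without a peak, and LOC105376031 at 1.41% ± 0.928 with one. Next to PAX4, FSCN3, which codes for an actin-bundling protein of the testis, was at 82.6% ± 1.94 from 16 and 50 reads.

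The other end of PAX2 (chr10:100829944) was also low: 15.6% of 32 and 5.15% of 97 reads within 500 bp were methylated over 60 CpGs, and the nearest peak lay 42409 bp away. The unmethylated run there was 4 kb and ended at a bin with few reads inside the gene and at a methylated bin beyond it.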
